A study of Mus musculus with 4 samples.

Results

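Receptor genes through which nerves control saliva were followed in the open chromatin of mouse salivary gland organoids (mSGOs). They were 9 genes fixed by name, taken from 21440 protein-coding genes that could be placed with a strand in the RefSeq gene table of GRCm38.p6. Chrm1 and Chrm3 encode muscarinic receptors for acetylcholine, Adra1a, Adra1b and Adrb1 adrenergic receptors for noradrenaline, P2ry2 and P2rx7 purinergic receptors for extracellular nucleotides, and Vipr1 and Tacr1 receptors for the neuropeptides VIP and substance P. Open chromatin was measured by bulk ATAC-seq, in which the Tn5 transposase cuts accessible DNA. The labels give 4 samples of non-irradiated organoids grown from the submandibular gland of C57BL/6 mice, 2 of passage 1 and 2 of passage 2, with 1 mouse of 12 weeks and 1 of 3 months named in each passage. The paper states that 4 mice were used for its ATAC-seq, and the younger of its 2 culture stages of organoids. All were grown in Matrigel in WRY medium, which holds EGF, FGF2, N2, insulin, dexamethasone, the ROCK inhibitor Y27632 and media conditioned with R-spondin1 and Wnt3a, and the study used female mice. The deposited data are 1 list of peaks for the whole series, with 69545 lines that describe 32011 distinct regions. No sample has values of its own, so passages could not be compared, there is no replicate error, and the depth of the samples is unknown. A gene without a region is therefore a gene at which nothing was listed, not one shown to be closed. In bulk material, a region open in few cells and a region weakly open in all cells cannot be told apart.

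In the salivary gland, parasympathetic nerves release acetylcholine, which acts mainly on the M3 receptor and, less, on the M1 receptor of acinar cells. These receptors signal through Gq and calcium stores, and the calcium opens the ion channels that drive fluid secretion. Sympathetic noradrenaline acts on beta receptors through Gs and cAMP to release proteins stored in granules, and on alpha-1 receptors through calcium. VIP raises cAMP through its receptor VPAC1, the product of Vipr1, while substance P and nucleotides acting on P2Y2 raise calcium. P2X7 is a cation channel opened by ATP. Organoids grow from dissociated gland cells, without the nerves that act on these receptors in the gland.

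Vipr1 was the only one of the 9 receptor genes with a region at its 5′ end, defined as a region midpoint within 1 kb of the outermost 5′ end of the gene. Among all protein-coding genes, 8206 of 21440 (38.3%, 95% Wilson interval 37.6 to 38.9, which covers counting error only) had one. With every start in the RefSeq promoter table counted, 2 of the 9 genes had a region at a start, Vipr1 and Adra1b, against 41.8% of all protein-coding genes. Regions inside the gene, over 1 kb from the 5′ end, were listed for 3 of the 9 genes, namely Chrm3, Adra1b and Vipr1, against 25.6% of all. At least 1 region lay within 50 kb outside the gene for 7 of the 9 genes, against 71.0% of all. No region lay in the gene or within 50 kb for Adra1a and Tacr1, as for 21.5% of all genes. The share at 5′ ends thus lay below that of all genes, whereas the share with a region within 50 kb was close to it. With 9 genes chosen with earlier results known, no test was made of these shares.

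**Figure D1:**
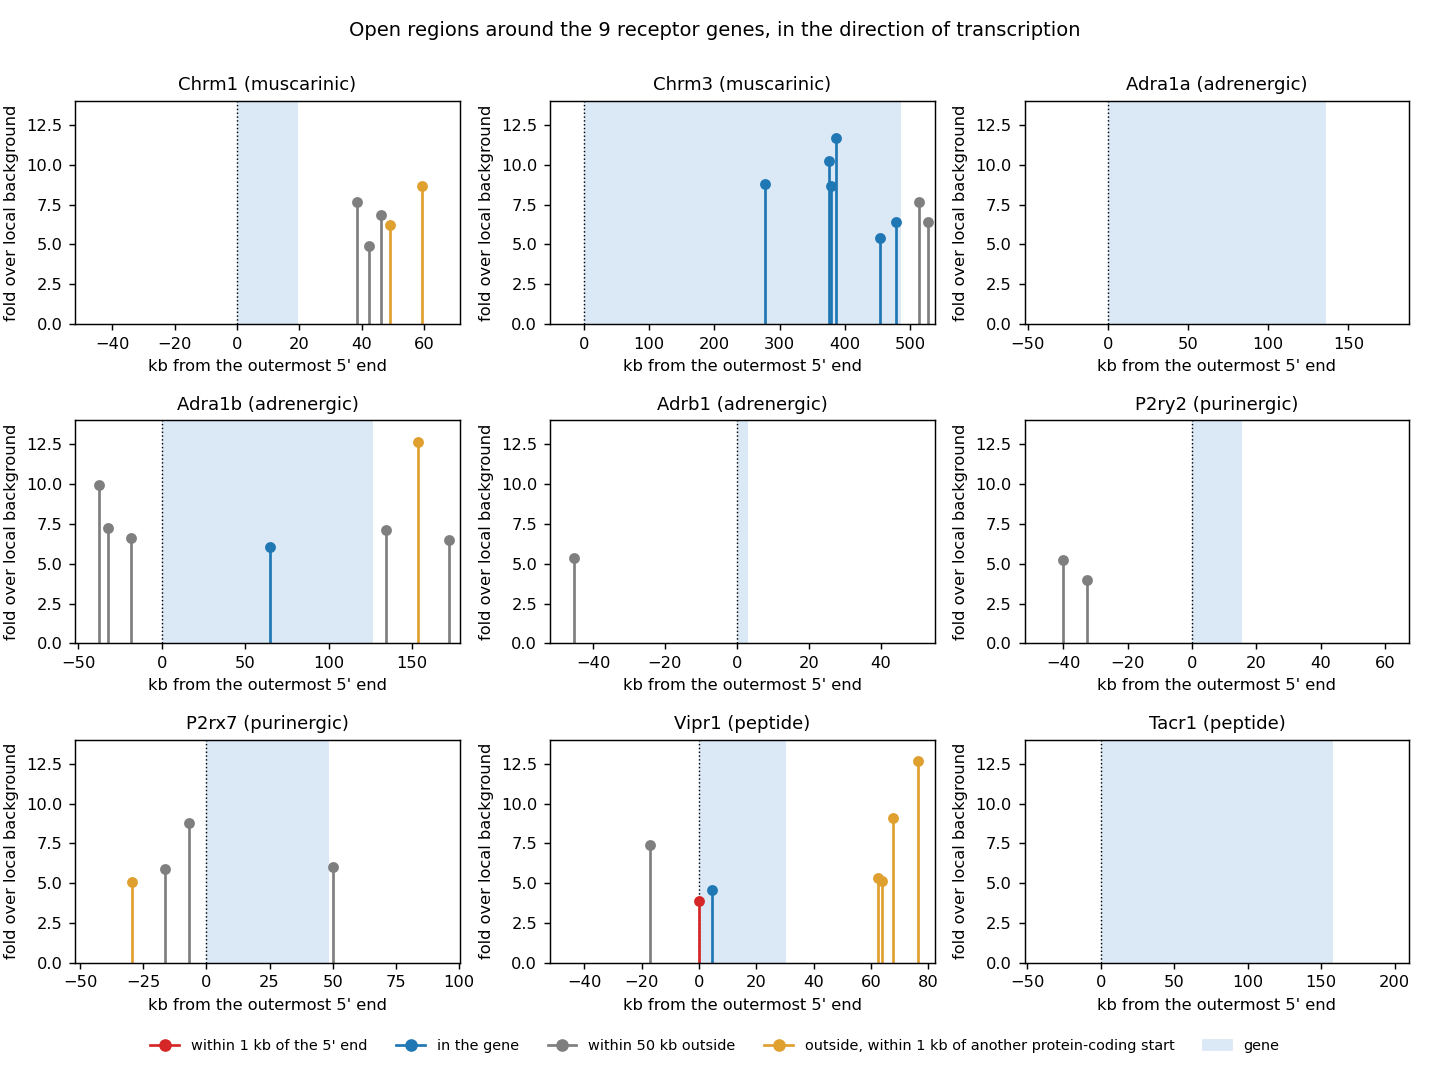
Each panel shows 1 gene in the direction of transcription, with kb from its outermost 5′ end on the horizontal axis, the gene shaded, and the fold of each listed region over the local background as the height of a stem. Only Vipr1 has a region at its 5′ end (red, fold 3.89), the regions of Chrm3 lie far inside the gene, and the panels of Adra1a and Tacr1 are empty.

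Distance to the nearest listed region, which needs no cutoff of distance, spread the genes widely. From the outermost 5′ end, the nearest region midpoint lay 31 bp away for Vipr1 and 6.80 kb away for P2rx7. It lay 18.6 kb away for Adra1b, 32.5 kb for P2ry2, 38.6 kb for Chrm1 and 45.4 kb for Adrb1. For Chrm3, Adra1a and Tacr1 it lay 224, 234 and 251 kb away. The median was 38.6 kb over the 9 genes and 7.62 kb over all protein-coding genes. Of all protein-coding genes, 10.4% were at least as far from a region as Chrm3, 10.1% as far as Adra1a and 9.64% as far as Tacr1.

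**Figure D2:**
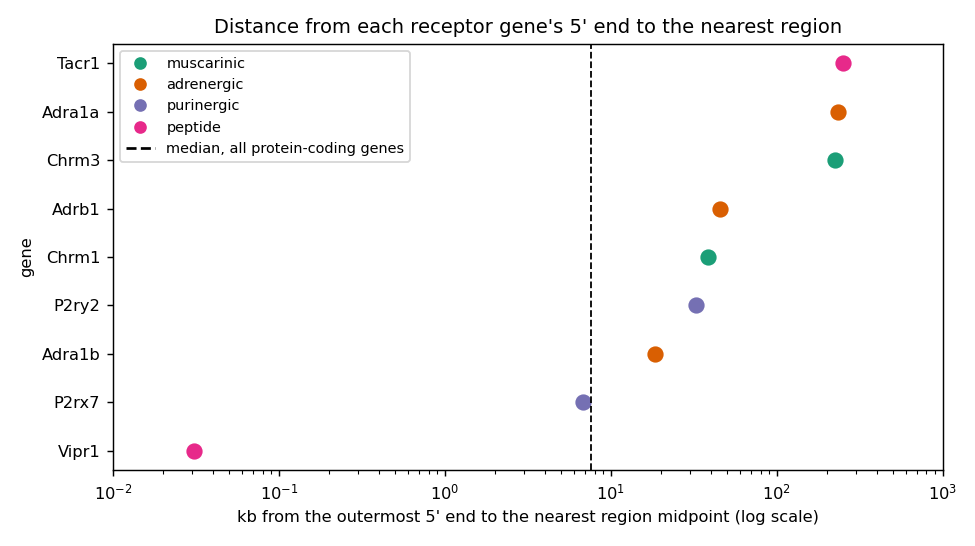
The horizontal axis gives the distance in kb, on a log scale, from each gene's outermost 5′ end to the nearest region midpoint, and colours mark the receptor class. The dashed line is the median of all protein-coding genes, 7.62 kb, and 7 of the 9 receptor genes lie to its right.

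The region at Vipr1 was among the weakest of the list. It lay at chr9:121642540-121642830, 291 bp wide, with its midpoint 31 bp before the 5′ end. Its IDR score was 550, where scores in the list ran from 540 to 1000, and its fold over the local background was 3.89. Of the 8178 regions near protein-coding 5′ ends, whose median fold was 7.90 (quartiles 6.05 and 10.56), 1.52% had a lower fold. The gene Lyzl4, which encodes a lysozyme-like protein, runs the other way from a 5′ end 595 bp from that of Vipr1, and the region's midpoint lay 564 bp from it, so that a region of Vipr1 and one of Lyzl4 cannot be told apart. When regions that share a 5′ end with another protein-coding gene were left out, 0 of the 9 genes had a region there. A share of all protein-coding genes under this rule is not given, so this count has no background beside it. A further region inside Vipr1, at chr9:121646938-121647304, lay 4.41 kb after the 5′ end, with a fold of 4.58. The promoter sequence of Vipr1, from the RefSeq table of GRCm38.p6, is shown because it holds the only region at an outermost 5′ end. It spans 250 bases before the start and 50 from it, 5′ to 3′, and capitals mark the bases inside the deposited region.
Vipr1, chr9:121642466-121642765, plus strand: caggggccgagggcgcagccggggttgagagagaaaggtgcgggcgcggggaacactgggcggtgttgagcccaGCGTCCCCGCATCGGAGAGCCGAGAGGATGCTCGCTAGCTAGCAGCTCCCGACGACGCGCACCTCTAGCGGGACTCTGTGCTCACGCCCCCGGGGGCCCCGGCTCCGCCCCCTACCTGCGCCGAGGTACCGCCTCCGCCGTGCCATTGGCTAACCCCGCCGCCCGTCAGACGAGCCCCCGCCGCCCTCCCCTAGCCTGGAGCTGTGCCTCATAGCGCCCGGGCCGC

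Of these 300 bases, 226 lay inside the region. The sequence was rich in CpG, with 35 CpG dinucleotides and an observed to expected ratio of 0.86. The letters GGGCGG, the core of the GC box bound by SP and KLF factors, were found 4 times on both strands together, and 3 of these matches lay in the region. CCAAT, the letters bound by NF-Y, was found once, in the region, and overlapped a match to GCCNNNGGC, the letters bound by AP-2 factors. GGGCGG was present in 46.2% of the 21263 promoters of protein-coding genes in the table, CCAAT in 38.2% and GCCNNNGGC in 19.9%. A match is a description of the letters and not a sign of binding.

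Adra1b showed how the choice of start matters. This gene encodes the alpha-1B adrenergic receptor and spans 127 kb, and RefSeq gives 2 starts, of which the inner one lies 64.8 kb inside the gene's 5′ end. At the outer start no region was listed. At the inner start a region lay at chr11:43836517-43836649, only 133 bp wide, with its midpoint 94 bp before that start. Its IDR score was 742 and its fold 6.05, with 24.8% of regions near protein-coding 5′ ends lower. Both promoters are shown because they belong to the same gene and differ in the listed region. Capitals mark bases inside the region at the inner start, and matches to the motifs searched at the outer start.
Adra1b inner start, chr11:43836440-43836739, minus strand: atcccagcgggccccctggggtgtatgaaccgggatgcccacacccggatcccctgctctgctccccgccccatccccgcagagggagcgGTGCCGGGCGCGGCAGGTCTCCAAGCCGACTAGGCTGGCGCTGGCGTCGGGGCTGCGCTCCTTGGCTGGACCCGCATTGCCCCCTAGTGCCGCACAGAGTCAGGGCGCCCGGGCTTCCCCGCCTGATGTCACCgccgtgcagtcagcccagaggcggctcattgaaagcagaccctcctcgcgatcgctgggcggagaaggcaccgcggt
Adra1b outer start, chr11:43901188-43901487, minus strand: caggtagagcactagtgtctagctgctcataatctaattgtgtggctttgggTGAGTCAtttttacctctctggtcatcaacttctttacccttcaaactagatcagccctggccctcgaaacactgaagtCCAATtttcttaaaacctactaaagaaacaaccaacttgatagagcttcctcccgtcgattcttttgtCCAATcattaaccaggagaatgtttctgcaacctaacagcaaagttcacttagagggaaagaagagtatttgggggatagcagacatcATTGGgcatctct

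The inner promoter held 28 CpG dinucleotides (ratio 0.74) and 2 matches to GGGCGG, both outside the region. The outer promoter held 3 CpG dinucleotides (ratio 0.23), 3 matches to CCAAT, 1 match to TGANTCA, the letters bound by AP-1, and no match to GGGCGG. Among all starts of protein-coding genes in the table, 63.7% of the 2273 starts with a CpG ratio within 0.05 of the inner promoter had a region within 1 kb, and 9.21% of the 2248 starts that resembled the outer one.

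CpG content set the background for the other receptors too. Of the 21263 starts, 40.2% had a region within 1 kb. The share rose from 3.22% for CpG ratios below 0.1 to 75.1% for ratios of 1.1 and above. Tacr1 had a ratio of 0.28, P2rx7 0.38 at its outer and 0.20 at its inner start, and Chrm3 0.46. Starts with ratios like theirs had a region in 12.7%, 20.5%, 8.12% and 29.6% of cases, so that a start without a region was the more common case at such sequences. Adrb1 (ratio 0.77) and P2ry2 (0.83 and 0.80 at starts 55 bp apart) were different. Starts with ratios like these had a region in 65.5%, 69.1% and 67.8% of cases, yet none was listed at either gene. The promoter of P2ry2 at its outer start is shown beside that of Vipr1 because the 2 sequences were alike in CpG ratio and in GC boxes and differed in the listed region. Capitals mark motif matches.
P2ry2 outer start, chr7:101012004-101012303, minus strand: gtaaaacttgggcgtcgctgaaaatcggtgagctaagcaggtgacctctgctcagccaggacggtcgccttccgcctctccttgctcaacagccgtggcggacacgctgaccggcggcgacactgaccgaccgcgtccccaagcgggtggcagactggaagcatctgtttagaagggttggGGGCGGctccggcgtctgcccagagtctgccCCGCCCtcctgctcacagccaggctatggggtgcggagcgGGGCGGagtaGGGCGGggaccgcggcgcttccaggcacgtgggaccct

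This sequence held 28 CpG dinucleotides, against 35 for Vipr1. It held 4 matches to GGGCGG, as many as Vipr1. None of the other motifs searched was found in it. Across the 10 receptor starts in the table, from 7 genes, GGGCGG was found at 6 starts of 5 genes, CCAAT at 3 starts and TGANTCA at 2. TGANTCA was present in 6.99% of all promoters in the table. TATAAA, the letters of a TATA box, was found at none of the 10 and in 12.6% of all promoters in the table. The cAMP response element, TGACGTCA, was also found at none of the 10, and in 2.23% of all. GGAATG, bound by TEAD factors, was absent from the 10 and present in 13.6% of all. The same held for TGTGGT, bound by RUNX factors, with 15.0% of all. AACCGG, the letters bound by Grainyhead-like factors, was found at the inner start of Adra1b and in 8.01% of all promoters. Chrm1 and Adra1a had no entry in the table.

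**Figure D3:**
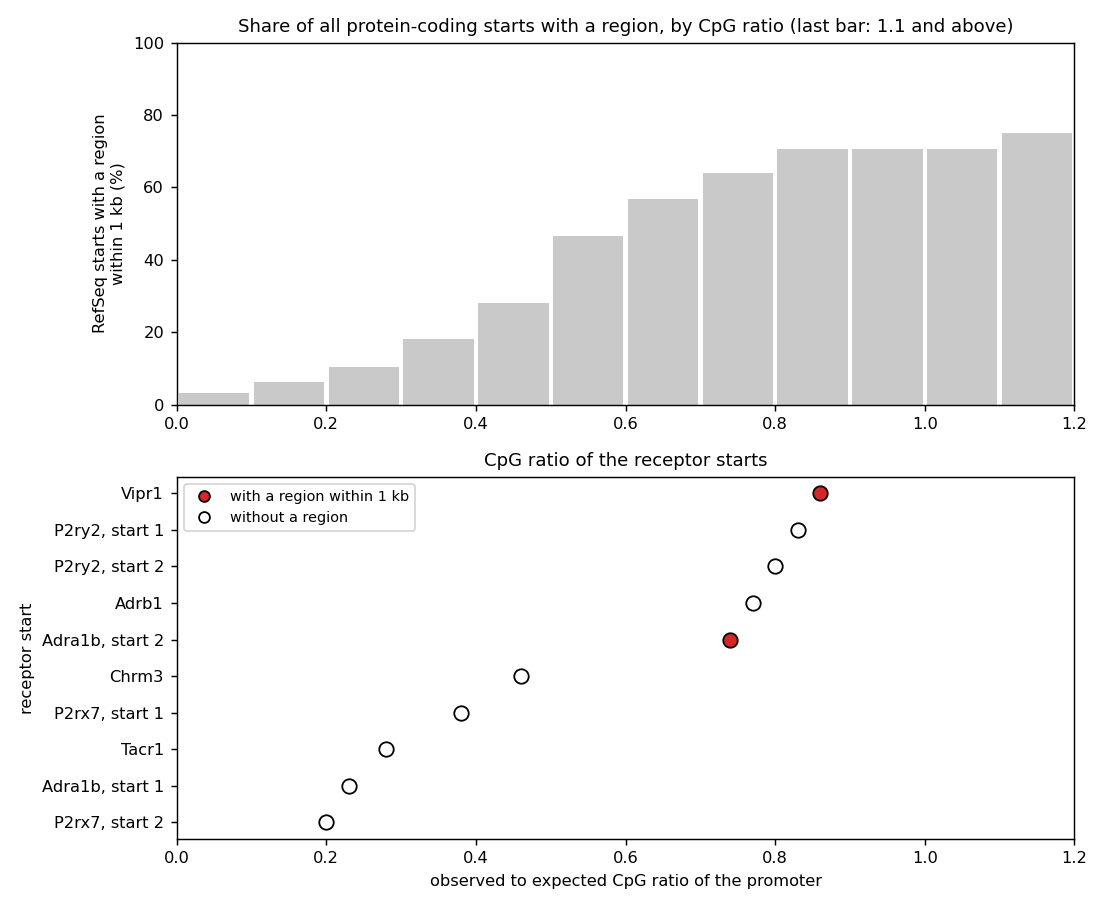
The upper panel gives the share of RefSeq starts of protein-coding genes with a region within 1 kb, in percent, by observed to expected CpG ratio of the 300-base promoter, and the lower panel the CpG ratio of each receptor start, filled where a region was listed. Both filled circles, Vipr1 at 0.86 and the inner start of Adra1b at 0.74, lie at high ratios, as do the open circles of P2ry2 and Adrb1.

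Among the muscarinic receptors, Chrm3 held most of the regions. Chrm3 encodes the M3 receptor, the main receptor for fluid secretion, and the study uses it as a marker of pro-acinar cells in its older organoids. The gene spans 486 kb on chromosome 13 from 9875486 to 10361062, and 6 regions lay inside it, all in the part farther from the 5′ end, between 278 and 479 kb from it. Of 382 protein-coding genes of similar length (within 1.5 times), with a median of 2 regions in the gene, 26.2% held at least as many. A group of 3 regions lay within 12.3 kb, from 9973914 to 9986193. The strongest of them, chr13:9973914-9974467, had a fold of 11.65, above 90.9% of the regions away from protein-coding 5′ ends. Its neighbours at chr13:9982087-9982399 and chr13:9985598-9986193 had folds of 8.65 and 10.26. A region apart from this group, chr13:10082797-10083353, had a fold of 8.81, and these 4 had the highest possible IDR score, 1000. The remaining 2 regions in the gene, nearer to its 3′ end, were weaker, with folds of 5.40 and 6.38. Whether these regions lie in exons or introns was not analysed here. Within 50 kb outside the gene, 2 regions lay beyond the 3′ end, with folds of 7.68 and 6.38, and none before the 5′ end.

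Chrm1, the gene of the M1 receptor, spans 19.6 kb on chromosome 19 from 8664005 to 8683606. It had no region at its 5′ end or inside it, and 76.5% of genes of similar length had none inside. All 5 regions within 50 kb lay beyond its 3′ end, from 19.0 to 39.7 kb past it. The strongest, chr19:8723082-8723545 with a fold of 8.67, lay at the 5′ end of Slc3a2, the heavy chain of amino acid transporters, and at that of the noncoding gene Snhg1. Another, with a fold of 6.23, lay 896 bp from a further start of Slc3a2. The remaining 3 had folds of 4.93, 6.86 and 7.68 and lay over 1 kb from any protein-coding start.

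The adrenergic receptors differed among themselves. Adra1a, the gene of the alpha-1A receptor, spans 136 kb on chromosome 14 from 66635251 to 66771240 and had no region in its whole window of 236 kb, where the window is the gene with 50 kb on either side. Of 3625 protein-coding genes with windows of similar length, 11.5% had none. Adrb1, the gene of the beta-1 receptor, spans 3.03 kb on chromosome 19 from 56722117 to 56725150. A single region lay in its window, 45.4 kb before the 5′ end at chr19:56676583-56676876, with a fold of 5.38. Adra1b, on chromosome 11 from 43774605 to 43901250, had 7 regions in its window, 1 in the gene and 6 outside it. Of 4054 genes with similar windows, 18.6% had at least as many. Before its outer 5′ end, 3 regions lay at 18.6, 32.4 and 37.6 kb, with folds of 6.65, 7.27 and 9.95. Beyond its 3′ end, the region with the highest fold, 12.67 at chr11:43747670-43748183, lay at the 5′ end of Ttc1, and 2 others had folds of 7.11 and 6.52.

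Neither purinergic receptor had a region at a start or in the gene. Genes of similar length had none in the gene in 81.1% of cases for P2ry2 and 60.2% for P2rx7. P2ry2 spans 15.5 kb on chromosome 7 from 100996568 to 101012053, and its 2 nearby regions lay 32.5 and 39.9 kb before the 5′ end. Both were weak, with folds of 3.98 and 5.23 and IDR scores of 606 and 593. P2rx7 spans 48.4 kb on chromosome 5 from 122643927 to 122692336 and had 4 regions within 50 kb. The strongest, chr5:122636937-122637321, lay 6.80 kb before the 5′ end with a fold of 8.80 and an IDR score of 1000. It lay over 1 kb from any other gene's start. Farther before the gene lay a region with a fold of 5.88 and one with a fold of 5.07, the latter at the 5′ end of Ift81, a gene of ciliary transport. A region with a fold of 6.00 lay 1.67 kb beyond the 3′ end.

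The peptide receptors stood at opposite ends. Vipr1, on chromosome 9 from 121642716 to 121672954, had 7 regions in its window, or 5.37 per 100 kb, and 10.1% of all protein-coding genes had at least that density. However, 4 of the 5 regions outside the gene lay within 1 kb of other protein-coding starts, those of Sec22c, Ss18l2 and Nktr. They included the highest fold around any of the 9 genes, 12.69 at the 5′ end of Nktr. The other region outside the gene lay 17.2 kb before the 5′ end, with a fold of 7.41. Tacr1, the gene of the NK1 receptor for substance P, spans 158 kb on chromosome 6 from 82402003 to 82560104 and had no region in its window of 258 kb. Of 2864 genes with similar windows, 11.8% had none.

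Set side by side, the 4 classes differed in where their regions lay. A region at the 5′ end was listed for 0 of 2 muscarinic, 0 of 3 adrenergic, 0 of 2 purinergic and 1 of 2 peptide receptor genes. Inside genes lay 6 regions of muscarinic, 1 of adrenergic, 0 of purinergic and 1 of peptide receptor genes, and all 6 muscarinic ones were in Chrm3. Within 50 kb outside the genes and over 1 kb from other protein-coding starts lay 5, 6, 5 and 1 regions of these classes. Per 100 kb of window, the classes had 1.84, 1.41, 2.27 and 1.80 regions. The median density was 1.73 per 100 kb over the 9 genes and 1.93 over all protein-coding genes. Classes hold 2 or 3 genes each, and the spread within the adrenergic and peptide classes, from windows with 0 regions to windows with 7, covered that between the classes. In all, 34 regions lay in or around the 9 genes, 1 at a 5′ end, 8 in genes and 25 outside, of which 8 lay at starts of other protein-coding genes. Their median fold was 6.58, against 7.11 for the whole list (quartiles 5.70 and 9.32).

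Other receptors of the same families were described in the same way. Of 26 further muscarinic, adrenergic, purinergic, VIP, PACAP and tachykinin receptor genes, 3 carried a region there (11.5%, against 38.3% of all protein-coding genes). Among them were P2ry1, a receptor for ADP (fold 5.36), and P2rx3, a channel opened by ATP (fold 6.21). P2rx3 shared its region with Ssrp1, a neighbouring gene that encodes a histone chaperone subunit. Together with Vipr1, 4 of 35 family members had a region at the 5′ end, 0 of 5 muscarinic and 0 of 3 tachykinin receptors among them. Of the 35 genes, 9 had no region in their window, beside 21.5% of all protein-coding genes.

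Genes that act after the receptors were counted by signalling arm, beside shares of all protein-coding genes of 38.3% at the outermost 5′ end and 41.8% at any RefSeq start. In the calcium arm, 11 of 17 genes (64.7%) had a region there, including Itpr1, a calcium release channel of the endoplasmic reticulum (fold 16.75), Stim2, a sensor of stored calcium (fold 11.96), and Gna11, a Gq-type alpha subunit (fold 10.73). Gnaq, the other Gq-type subunit listed, had none at its 5′ end. In the cAMP arm, 2 of 13 genes (15.4%) had a region there, the catalytic subunit gene Prkaca of protein kinase A (fold 13.49) and the transcription factor gene Creb1 (fold 12.97). With any RefSeq start counted, these became 12 of 17 and 4 of 13 genes, as Stim1, another sensor of stored calcium, Gnas, the gene of Gs, and Prkar1a, a regulatory subunit of protein kinase A, were added. A stricter set held the 16006 regions with the lowest q-values. In it, 6 of 17 calcium arm genes (35.3%) and 2 of 13 cAMP arm genes (15.4%) had a region at the outermost 5′ end, against 25.9% of all. Of 8 genes of receptor desensitisation, 4 had a region, namely Rgs2 (fold 10.44), Grk6 (fold 8.93), the arrestin gene Arrb2 (fold 8.52) and Grk5 (fold 7.69). Whether these lists differ from each other or from all genes was not tested.

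Markers of the cells that could be present were checked in the same way, again beside 38.3% of all protein-coding genes. Of 8 basal and stem/progenitor markers, 7 had a region at the 5′ end, with the highest folds at Itgb1 (10.66), Sox9 (7.82) and Cd44 (7.18). In the stricter set, the 16006 regions with the lowest q-values, 2 of these 8 markers had one, against 25.9% of all genes. Among 8 duct markers, 3 had one (37.5%, against 38.3% of all genes), at Cldn4 (7.35), Epcam (6.64) and Krt8 (5.96). Of 8 pro-acinar and acinar markers, 2 had one, Alcam (13.87) and Clcn3 (12.60), whereas none was listed at Aqp5, the water channel of acinar cells, or Bhlha15, a transcription factor of secretory cells. Of 6 myoepithelial markers only the oxytocin receptor gene Oxtr had one (4.82). Of 12 neuron and Schwann cell markers, 2 had one. Among them was Snap25, a gene of synaptic vesicle release (6.87), whose region lay 0.892 kb from the 5′ end. Defining markers of neurons such as Elavl3, Elavl4 and Tubb3 had none. Of 9 endothelial, immune and fibroblast markers, 1 had one, Cd68 (4.58). The paper names pro-acinar and myoepithelial-like cells in its older organoids, whereas its ATAC-seq used the younger stage. The part of cell composition in the receptor results was not tested.

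**Figure D4:**
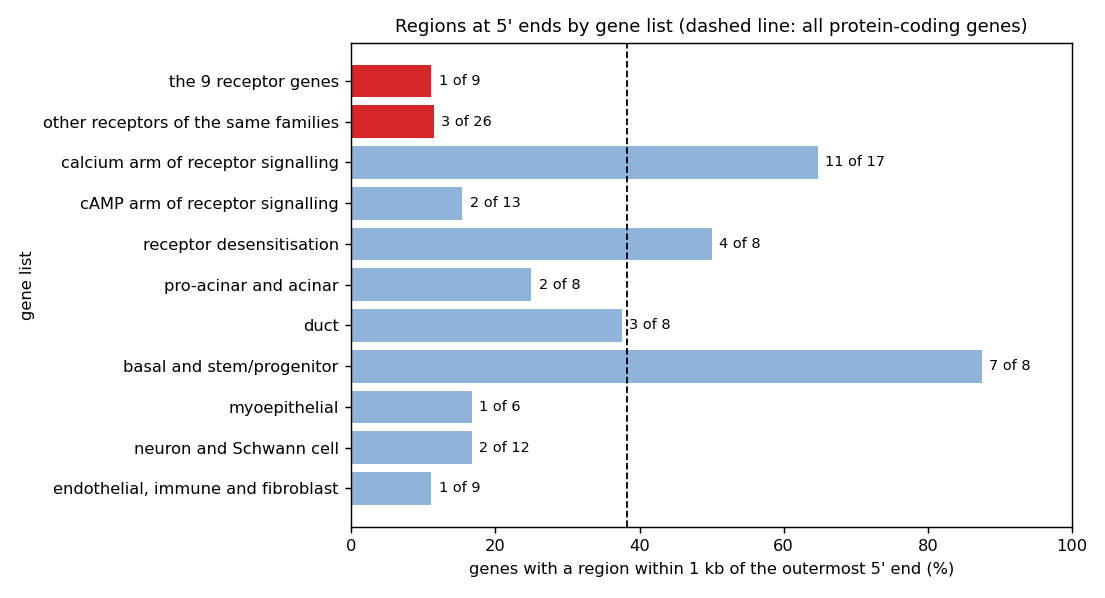
Bars give the percent of genes in each list with a region within 1 kb of the outermost 5′ end, with the count of genes beside each bar and the 2 receptor lists in red. The dashed line marks 38.3%, the share of all protein-coding genes, and the receptor lists lie below it at 11.1% and 11.5%, while basal and stem/progenitor markers reach 87.5%, or 2 of 8 genes in the stricter set.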

How the data were processed

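The authors sequenced organoid ATAC-seq libraries as 75 bp read pairs and ran the ENCODE ATAC-seq pipeline. Their methods describe a consensus over all organoid samples, and the deposited list was taken to be it. That is an assumption, since neither its number of lines nor its number of distinct regions is the approximate peak number given there. The version, the filters and the peak caller's settings are not given in the sources used here. From the deposited list, 3 values of the authors' pipeline were used: a region's IDR score, the fold (a linear ratio) of its signal against local background, and a −log10 q-value. Its −log10 p-values were not used. Depth is unknown.

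The submitters' processing notes name HOMER and GRCm39. Regions ended beyond GRCm39 chromosome ends on 8 of 21 chromosomes, and 5.04% of GRCm39 protein-coding 5′ ends had a region within 1 kb, against 38.3% in GRCm38.p6, so the list was read as GRCm38.

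Lines with the same coordinates were joined into 1 region with the values of the summit that had the lowest q-value. Gene positions came from the RefSeq table of GRCm38.p6. Strand came from the RefSeq promoter table for 17492 protein-coding genes and by gene name from GENCODE release M39 for 3948, among them Chrm1 and Adra1a. The remaining genes were left out. Other exons and introns were not analysed here. Genes of similar length had lengths within 1.5 times. Starts with similar CpG ratios were within 0.05. Motifs were searched on both strands. No test was made, since the list holds no replicates. Alternatives were other distances (500 bp, 2 kb), flanks (25 and 100 kb), overlap rules, lines in place of regions, and a stricter set, the 16006 regions with the lowest q-values. Counting of all starts, shared 5′ ends, distances to the nearest region, CpG ratios, the background without olfactory, vomeronasal and trace amine receptor genes, and the stricter set for the other gene lists were added after the data were examined. Counting functions were tested on simulated data, where 2000 of 2000 genes were counted correctly. The members and gene lists were chosen with earlier results of these data known. Named were all 9 receptor genes and, from other lists, the 3 genes with the highest fold at the 5′ end, the other genes being chosen after their values were seen; some genes of these lists are not reported here. Counts and figures were made in Python 3.11.15 with pandas 2.3.3 (on numpy 2.4.6), intervals with scipy 1.17.1, and plots with matplotlib 3.10.9.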

Additional observations from a re-analysis of the deposited data

How the results depend on the processing

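Samples could not be left out in turn. No paired analysis was possible because the 4 samples share 1 peak list. The number of receptor genes with a region at the 5′ end stayed at 1 of 9 within 500 bp, within 2 kb, with any base of a region counted, and with either end of the gene counted. It was 2 with any RefSeq start and 0 in the stricter set by q-value, where regions have −log10 q-values of at least 26.38. It was also 0 without 5′ ends shared with another gene, a rule for which no share of all genes is given. The share of all protein-coding genes, 38.3%, was 35.4% within 500 bp, 41.4% within 2 kb, 25.9% in the stricter set, 41.8% with any RefSeq start and 40.7% without olfactory, vomeronasal and trace amine receptor genes. Regions in the 9 genes, 8 in all, were 14 by lines of the list, which repeats a region for each summit, and 4 in the stricter set, all of these in Chrm3. Regions within 50 kb outside the genes, 25 in all, were 9 in the stricter set, 8 within 25 kb and 41 within 100 kb. In the flanks of 100 kb, Adra1a and Tacr1 had 1 region each. These sets are smaller or larger by construction. Gene by gene, 79 of 126 counts under the alternatives were 0 both before and after the change. Of the other 47, 27 moved by over 1.5 times, or to or from 0, and 20 did not. In the stricter set, genes with a region at the 5′ end fell in number from 7 to 2 of 8 basal and stem/progenitor markers, from 11 to 6 of 17 genes of the calcium arm, from 3 to 1 of 26 other receptors, from 2 to 1 of 12 neuron and Schwann cell markers, and from 1 to 0 in the myoepithelial and in the endothelial, immune and fibroblast lists. The duct (3), acinar (2), desensitisation (4) and cAMP arm (2) counts did not change. Since depth is unknown, a gene without a region may hold one too weak to be listed.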

Other observations

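Several long genes that act after the receptors held many regions inside the gene, away from the 5′ end. They were chosen here after their values were seen. Pde4d, a phosphodiesterase that breaks down cAMP, held 24 regions in the gene and none at its outermost 5′ end, and 2.60% of the 77 protein-coding genes of similar length held at least as many. Gnaq held 10 regions in the gene, with 6.20% of 839 similar genes at or above that number. Itpr1 and Itpr2, both calcium release channels, held 13 and 12, with 3.40% of 617 and 5.96% of 520 similar genes at or above. Stim1 held 8, with 5.12% of 1289. Not every long gene of these arms held so many for its length. Plcb1 held 8, with 21.0% of 210 similar genes at or above that number. Adcy9 held 2, with 44.4% of 1550, Stim2 held 1, with 62.0% of 1949, and Adcy5 held 0. For comparison, 26.2% of similar genes held as many as the 6 regions of Chrm3. Among the markers, Trp63, a transcription factor of basal epithelium, had no region at its outermost 5′ end and 7 in the gene, with 11.6% of 1061 similar genes at or above that number.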
